A study of Mus musculus with 19 samples.

Results

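Fast synaptic excitation and inhibition in the brain run through ligand-gated ion channels for glutamate, GABA and glycine, and the genes that encode these channels, with the metabotropic glutamate receptors, were followed here in mouse medulloblastoma. The genes were taken as every probe set with a single gene symbol of the Gria, Grik, Grin, Grid, Grm, Gabr or Glr families in the platform annotation. The rule found 84 probe sets of 42 genes, of 34945 probe sets of 18193 genes with a single symbol. Members of these families that are not named below were not analysed here.

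Tumours were allografts of Ptch+/-p53-/- medulloblastoma, a cerebellar tumour in which loss of Patched keeps Sonic hedgehog signalling on, grown under the skin of the right flank of nude mice, which lack mature T cells. The drug was NVP-LDE225, an antagonist of Smoothened, the membrane protein that carries the hedgehog signal. The groups were 8 tumours treated with 40 mg/kg, 8 tumours treated with 160 mg/kg and 3 tumours treated with vehicle, with 1 array each. The labels call both treated groups resistant and the vehicle group sensitive, so treatment and resistance form 1 contrast and cannot be told apart. The source names, however, call only 160 mg/kg tumours 6 and 7 resistant and the other treated tumours treated, and the tumour status label was used here. All 3 groups share the Ptch and p53 genotype, the flank site and the nude host. The labels do not say whether the tumours came from separate donor tumours, and the p-values then measure only how far these 19 samples spread, which may be technical.

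Each of these receptors is built from several subunits, and the subunits present set how it behaves. AMPA receptors carry most fast excitatory current, NMDA receptors admit calcium when glutamate and depolarisation coincide, kainate receptors modulate release and excitability, and metabotropic receptors signal through G proteins. GABA-A and glycine receptors are chloride channels. Cerebellar granule neurons, the lineage from which hedgehog-driven medulloblastoma arises, are known to gain GABA-A alpha6, beta2 and delta subunits and the NMDA subunit GluN2C as they mature.

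The promoters of 3 members are given because the results turn on these genes. Gabra4 encodes the alpha4 subunit of GABA-A receptors and was the only member to pass the test, and Gabra6 and Gabrb2, which encode the alpha6 and beta2 subunits, are neighbouring genes on chromosome 11 that were high in the same 3 tumours. Each sequence runs from 250 bases before to 50 bases after the start of the gene in RefSeq (GRCm38.p6), 5′ to 3′ on the strand of the gene. Gabra4 lies at chr5:71658259-71658558 on the minus strand, Gabra6 at chr11:42321023-42321322 on the minus strand, and the first of 3 listed starts of Gabrb2 at chr11:42420190-42420489 on the plus strand. Capitals mark TTGGC, the recognition half-site of nuclear factor I, and CANNTG, the E-box bound by basic helix-loop-helix factors, searched on both strands, so that GCCAA marks TTGGC on the other strand.
Gabra4: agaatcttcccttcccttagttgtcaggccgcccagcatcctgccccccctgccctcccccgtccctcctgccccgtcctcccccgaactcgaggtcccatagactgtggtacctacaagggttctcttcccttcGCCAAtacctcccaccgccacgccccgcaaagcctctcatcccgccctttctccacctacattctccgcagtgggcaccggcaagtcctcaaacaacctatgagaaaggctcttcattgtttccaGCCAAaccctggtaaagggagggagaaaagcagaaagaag
Gabra6: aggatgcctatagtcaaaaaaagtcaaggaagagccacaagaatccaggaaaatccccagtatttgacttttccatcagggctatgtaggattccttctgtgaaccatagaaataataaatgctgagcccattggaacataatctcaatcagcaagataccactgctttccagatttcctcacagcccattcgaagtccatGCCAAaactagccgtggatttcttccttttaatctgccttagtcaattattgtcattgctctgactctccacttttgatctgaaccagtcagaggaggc
Gabrb2: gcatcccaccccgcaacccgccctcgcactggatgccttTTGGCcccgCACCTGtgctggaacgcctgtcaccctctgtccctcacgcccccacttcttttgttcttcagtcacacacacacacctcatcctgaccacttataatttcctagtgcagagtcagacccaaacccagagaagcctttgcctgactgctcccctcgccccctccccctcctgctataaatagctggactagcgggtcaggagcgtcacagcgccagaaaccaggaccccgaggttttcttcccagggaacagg
TTGGC occurred 2 times in the Gabra4 window, 1 time in the Gabra6 window and 1 time in the Gabrb2 window, and CANNTG occurred 1 time, in the Gabrb2 window. An entry existed for 31 of the 42 genes, with 38 promoters in all. TTGGC was found in 44.7% of the 38 member promoters, against 46.7% of 32851 promoters in the table, and CANNTG in 50% of member promoters, against 72.3%. A Gli motif, GACCACCCA, was in 0 of the 38 windows, against 0.253% of all windows, so a short list of promoters would rarely hold it. These matches are descriptions of the letters in each window.

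Most receptor genes had dim signals in these tumours. A probe set was kept for testing when its signal was above the 40th percentile of its own array, between 19.7 and 33.3 signal units, on at least 3 of the 19 arrays. This kept 40 of the 84 probe sets, which stand for 21 of the 42 genes. The other 44 had signals between 0.2 and 45.6, with a median of 4.15, and 35 of them were above that level on 0 arrays.

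The genes with no kept probe set included AMPA subunit Gria1, kainate subunit Grik1, NMDA subunit Grin2a, delta receptor Grid1, and metabotropic receptors Grm2, Grm3, Grm5, Grm7 and Grm8. Among GABA-A genes they were the alpha subunits Gabra2 and Gabra5, the beta subunit Gabrb1, the gamma subunit Gabrg3, and Gabre, Gabrq, Gabrr1 and Gabrr2, which encode epsilon, theta and rho subunits. The 4 alpha subunits of the glycine receptor, Glra1, Glra2, Glra3 and Glra4, which form its agonist-binding part, were also below the level. No change was tested for these 21 genes.

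The kept probe sets fall into kinds that the filter treats differently. Of the 40, 10 were above the level on all 19 arrays, from Gria2, Gria4, Grik2, Grik5, Grm4, Gabra4 and Glrb. Another 12 were above it on 0 of the 3 vehicle arrays, and so were kept through treated tumours alone, from Gabra3, Gabra6, Gabrb2, Gabrd, Gabrg1, Grik3, Grin2b and Grin3a. The reverse case, kept through vehicle arrays alone, held 0 probe sets, since 3 vehicle arrays would all have had to pass. The filter therefore favours members that are higher in treated tumours, and the counts of positive changes below describe the kept probe sets only.

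**Figure D1:**
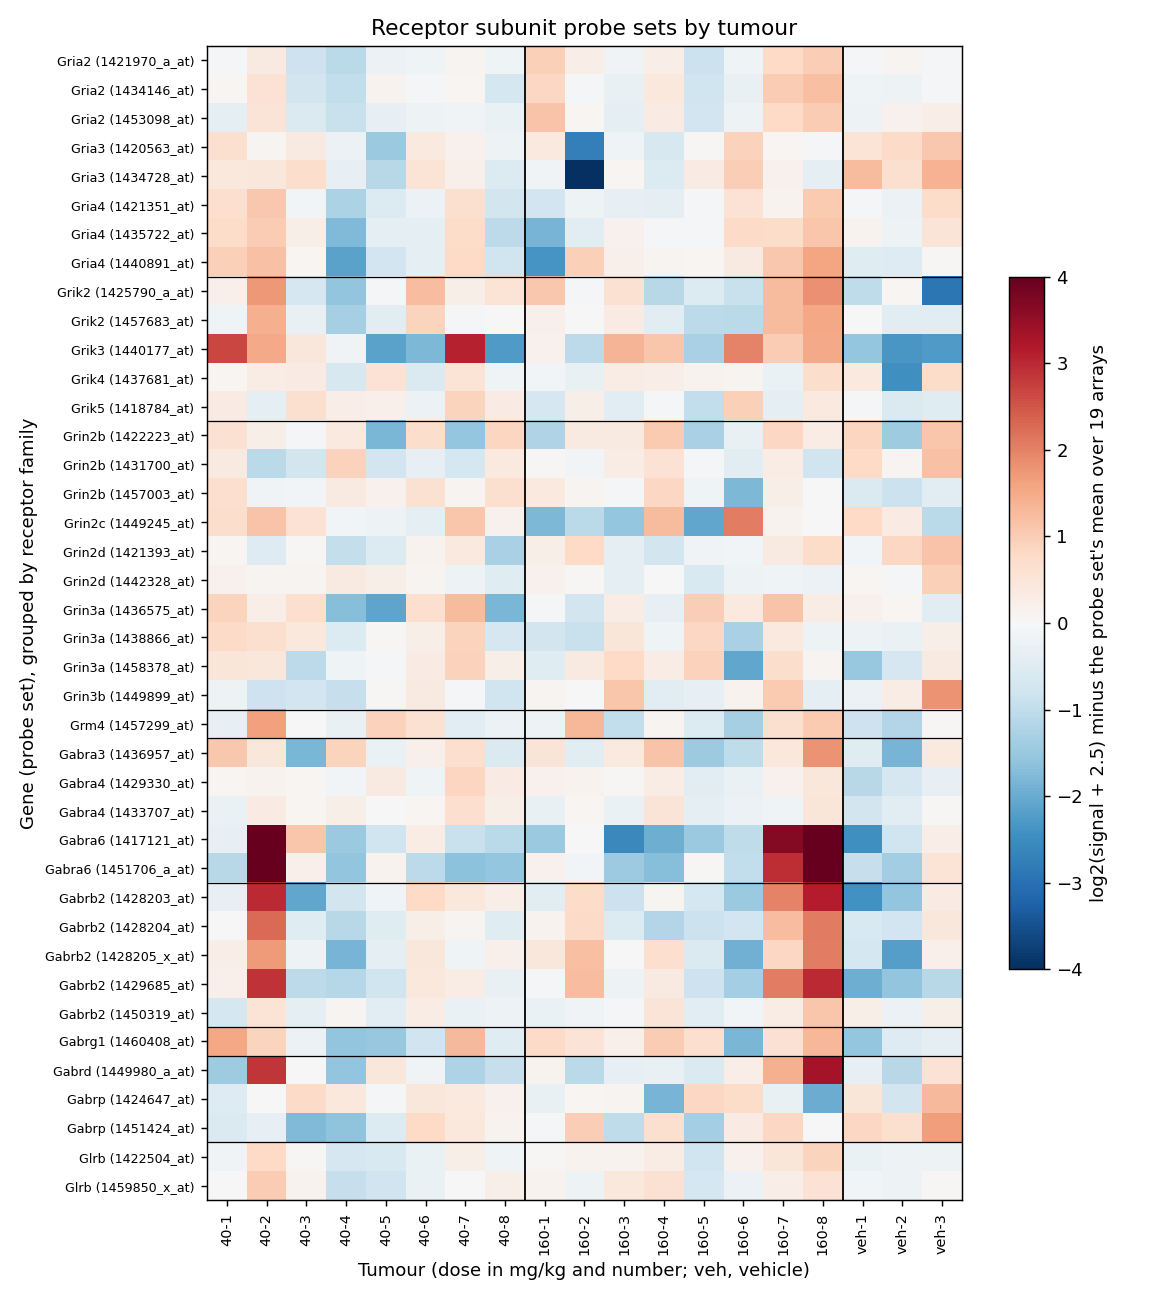
Heat map of the 40 kept probe sets (rows, grouped by receptor family) in the 19 tumours (columns, 40 mg/kg, 160 mg/kg, then vehicle), coloured by log2(signal + 2.5) minus the mean of the probe set over the arrays. In the columns of 40 mg/kg tumour 2 and 160 mg/kg tumours 7 and 8, Gabra6, Gabrd and most Gabrb2 probe sets are red, and in the column of 160 mg/kg tumour 2 both Gria3 probe sets are blue.

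Whether resistant tumours carried another set of receptor subunits was addressed by comparing both treated groups, weighted equally, with vehicle. Of the 40 kept probe sets 1 rose, for Gabra4, and 0 fell, in limma's moderated test with Benjamini-Hochberg adjustment over all 31143 kept probe sets at a threshold of 0.05. That is 2.5% of the members, against 4.47% of all probe sets called in either direction, 2.64% higher and 1.83% lower. With 1 call, the share of members is near the background and is no result about the families. At an unadjusted p under 0.05 there were 6 higher members (2 of Gabra4 and 1 each of Gabrb2, Grik2, Grik3 and Grin2b) and 2 lower members (1 each of Gabrp and Grin2b). That is 8 of 40, or 20% of members, against 21.5% of all probe sets, 9.83% higher and 11.6% lower. For 0 members were all 16 treated tumours above all 3 vehicle tumours, against 1.83% of all probe sets, and for 0 were all below, against 2.01%.

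The log2 difference, treated minus vehicle, on log2(signal + 2.5), had a median of 0.30 over the 40 members, against -0.06 over all probe sets, and ranged from -1.29 for Gria3 to 2.44 for Grik3. It was positive for 26 members and negative for 14, or 65% positive, against 42.9% of all probe sets. Because 12 of the 40 were kept through treated tumours alone, the filter favours positive members. This split describes the kept probe sets only and was not tested. The spread between tumours of a group was large as well, with a median SD on that log2 scale of 0.68 in the 40 mg/kg tumours, 0.90 in the 160 mg/kg tumours and 0.52 in the vehicle tumours. Over all probe sets the median SD was 0.29, 0.34 and 0.23 in the same groups. Only 10 of the 40 members were above the filter level on all 19 arrays, and low signals on these arrays are noisy. The part of dim signal in the members' spread was not tested.

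**Figure D2:**
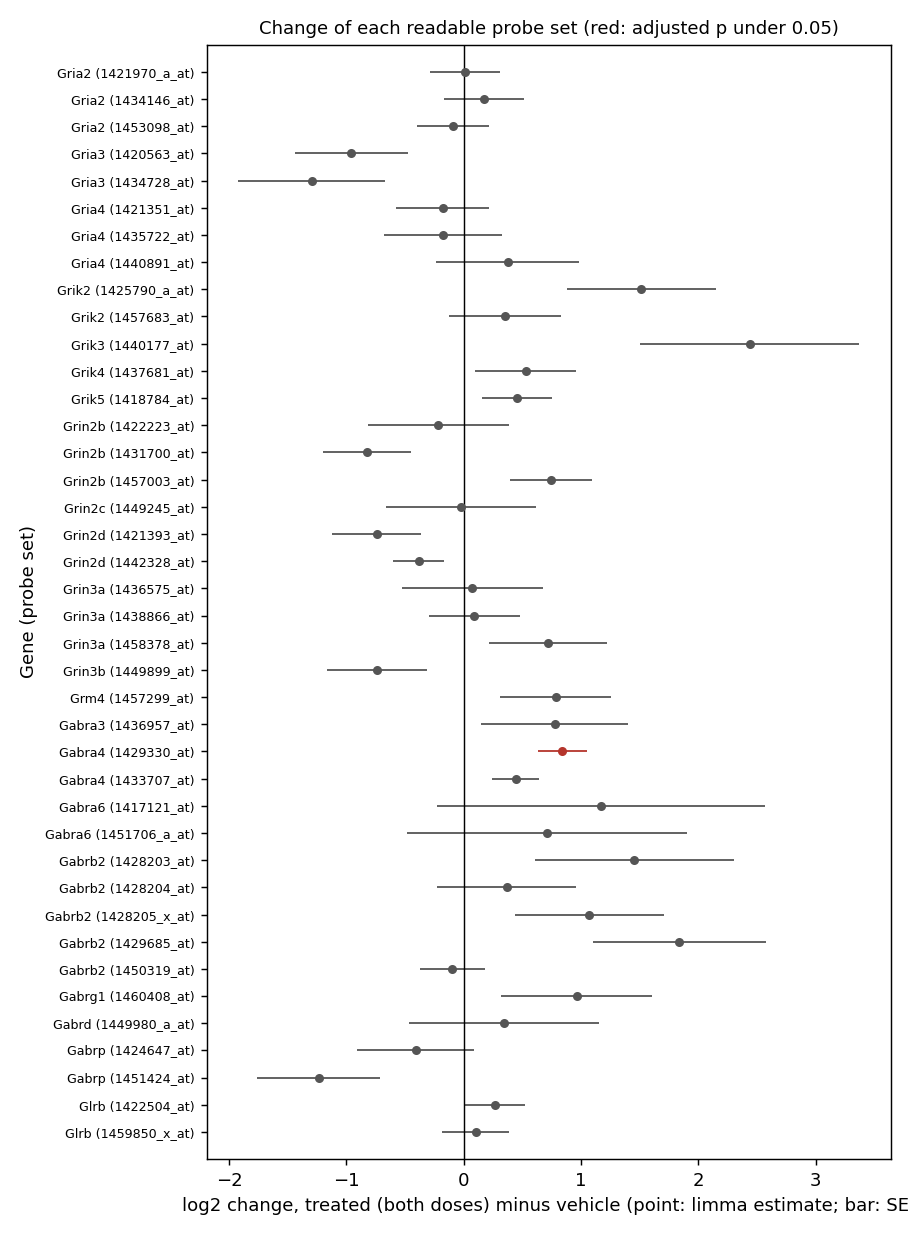
Log2 change, both doses minus vehicle, of each of the 40 kept probe sets (points, limma estimate; bars, SE), from -1.29 to 2.44. Gabra4, in red, is the 1 probe set with an adjusted p under 0.05.

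Among the subunits of AMPA receptors, 0 of 8 kept probe sets of 3 genes passed, and the median log2 difference was -0.13. Gria2 encodes GluA2, the subunit that makes AMPA receptors nearly impermeable to calcium. Its signal (probe set 1421970_a_at) had a lowest, median and highest value of 316.3, 592.3 and 866.5 in 40 mg/kg tumours and of 369, 802.3 and 1323.9 in 160 mg/kg tumours, against 635.6, 728.6 and 636.4 in the 3 vehicle tumours. Treated tumours lay on both sides of vehicle, with 6 of 16 above and 8 of 16 below all 3. The log2 difference was 0.01 (SE 0.30, adjusted p = 0.989), and the other probe sets gave 0.18 and -0.09, so their signs differ.

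Gria3 encodes GluA3, a partner of GluA2 in many AMPA receptors. Probe set 1434728_at had values of 86, 235.1 and 308 in 40 mg/kg tumours and 8.5, 184.65 and 372.8 in 160 mg/kg tumours (lowest, median, highest), against 452.8, 294.7 and 494.7 in vehicle tumours. Probe set 1420563_at had 21.1, 69.3 and 98.9 in 40 mg/kg tumours and 7.4, 62.65 and 121.1 in 160 mg/kg tumours, against 93.9, 109.3 and 137.4 in vehicle tumours. In both, 14 of the 16 treated tumours were below all 3 vehicle tumours and the remaining ones lay within the vehicle range.

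Neither Gria3 probe set passed the test. The log2 differences were -1.29 (SE 0.63, adjusted p = 0.237) and -0.96 (SE 0.48, adjusted p = 0.252). Without 160 mg/kg tumour 2, which had the lowest signal of both, the first was -1.03 with an adjusted p of 0.0623. In that tumour Atoh1, a transcription factor of granule neuron progenitors, was also low, at 22.5, against at least 352.6 in the other treated tumours and 1196.4 to 1422.4 in vehicle tumours. The granule neuron lineage list that holds Atoh1 was not low there as a whole. Its summed signal was 27244 in that tumour, against 12439 to 13791 in vehicle tumours. The tumour was also 1 of the 2 arrays least like the others, with a median correlation of 0.917. The part of this in the Gria3 values was not tested. Fewer cells of a type and less RNA per cell cannot be told apart in such bulk samples.

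Gria4, which encodes GluA4, an AMPA subunit of fast cerebellar synapses, gave log2 differences of -0.18, -0.18 and 0.37 over 3 probe sets, with adjusted p-values of 0.824, 0.868 and 0.754. The probe set with the positive sign, 1440891_at, exceeded the highest vehicle value in 11 treated tumours and fell short of the lowest in 4.

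Among the kainate receptor subunits, 0 of 5 kept probe sets of 4 genes passed, with a median log2 difference of 0.53. Grik3 encodes GluK3, a low-affinity kainate subunit. Its signal was 0.3, 12.9 and 110.6 (lowest, median, highest) in 40 mg/kg tumours and 3, 25.85 and 50.6 in 160 mg/kg tumours, against 2.1, 0.2 and 0.3 in vehicle tumours, and 13 of 16 treated tumours were above all 3. The log2 difference was 2.44 (SE 0.94, adjusted p = 0.136). Because all vehicle values were under the pseudocount of 2.5, this difference depends on that setting, at 3.11 with a pseudocount of 1 and 1.10 with one of 16.

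Grik2 encodes GluK2, a kainate subunit of cerebellar granule neurons. Probe set 1425790_a_at had values of 12.5, 48.75 and 145.8 in 40 mg/kg tumours and 18.2, 52.55 and 154.8 in 160 mg/kg tumours, against 19.5, 44.4 and 3.5 in vehicle tumours. Its log2 difference was 1.51 (SE 0.63, adjusted p = 0.171), and that of 1457683_at was 0.35 (SE 0.48, adjusted p = 0.700). In both the groups overlap. Grik4 and Grik5, which encode the high-affinity subunits GluK4 and GluK5, had log2 differences of 0.53 (adjusted p = 0.494) and 0.45 (adjusted p = 0.387), and Grik4 lay within the vehicle range in all treated tumours.

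**Figure D3:**
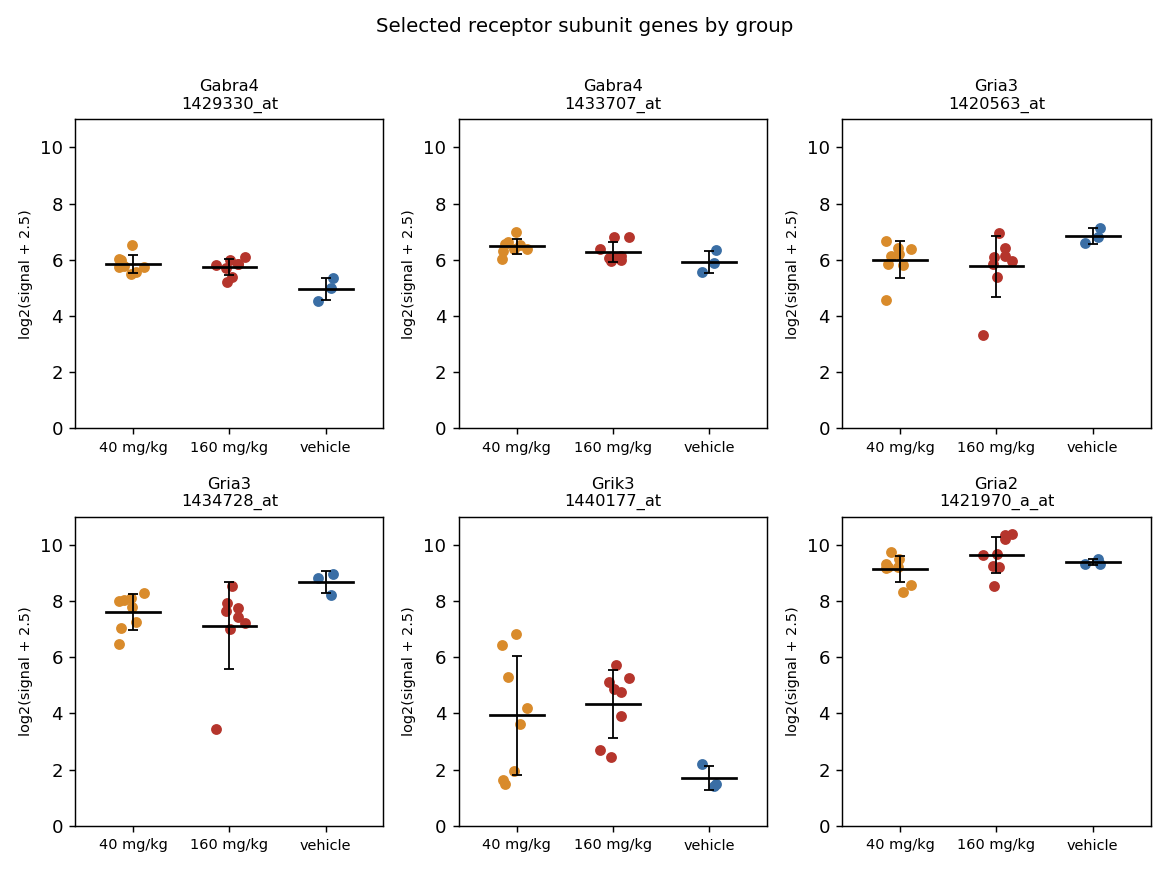
Log2(signal + 2.5) of 6 probe sets in 40 mg/kg, 160 mg/kg and vehicle tumours (points, single tumours; horizontal bar and whisker, mean and SD). Gabra4 1429330_at is above vehicle in 15 of 16 treated tumours, both Gria3 probe sets are below it in 14 of 16, and Gria2 spreads on both sides of it.

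Among the NMDA receptor subunits, 0 of 10 kept probe sets of 5 genes passed, with a median log2 difference of -0.12. Grin2b encodes GluN2B, the main GluN2 subunit of immature neurons. Probe set 1457003_at had values of 17.4, 24 and 33.1 in 40 mg/kg tumours and 3.9, 20.65 and 36.6 in 160 mg/kg tumours, against 12.4, 9.7 and 13.7 in vehicle tumours, and 15 of 16 treated tumours were above all 3. Its log2 difference was 0.75 (adjusted p = 0.226), while 1431700_at gave -0.83 (adjusted p = 0.204) and 1422223_at gave -0.22 (adjusted p = 0.865). The probe sets of this gene thus disagree in direction, and no direction is given for it.

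Grin2c encodes GluN2C, which replaces GluN2B in mature granule neurons. It had values of 23.4, 42.25 and 72.4 in 40 mg/kg tumours and 5.6, 22.35 and 139.2 in 160 mg/kg tumours, against 56.4, 40.4 and 13.8 in vehicle tumours. The groups overlap widely, and the log2 difference was -0.02 (SE 0.64, adjusted p = 0.989). Grin2d, which encodes the GluN2D subunit of early neurons and interneurons, had differences of -0.74 and -0.38 over 2 probe sets, with 7 of 16 treated tumours below all vehicle tumours in each. Grin3a and Grin3b encode glycine-binding subunits that lower calcium entry. Grin3a gave 0.07, 0.09 and 0.72 and Grin3b -0.74, with adjusted p-values between 0.321 and 0.957.

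Grm4 was the 1 metabotropic receptor gene kept. It encodes mGlu4, which dampens glutamate release at granule cell terminals. Its signal was 52.2, 67.25 and 233.4 in 40 mg/kg tumours and 27.3, 71.1 and 187.5 in 160 mg/kg tumours, against 39.4, 30.5 and 74.8 in vehicle tumours. Only 7 of 16 treated tumours were above all 3 vehicle tumours, and the log2 difference was 0.78 (SE 0.47, adjusted p = 0.344). Its highest value was that of 40 mg/kg tumour 2, followed by 160 mg/kg tumour 2 (187.5), 160 mg/kg tumour 8 (152.7), 40 mg/kg tumour 5 (138.8) and 160 mg/kg tumour 7 (114.7).

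Among the alpha subunits of GABA-A receptors, 1 of 5 kept probe sets of 3 genes rose, with a median log2 difference of 0.77. Gabra4 encodes alpha4, a subunit of receptors outside synapses that respond to low levels of GABA. Probe set 1429330_at had values of 42.9, 52.1 and 89 in 40 mg/kg tumours and 34.9, 54.35 and 66.6 in 160 mg/kg tumours (lowest, median, highest), against 20.9, 29.2 and 37.9 in vehicle tumours. All treated tumours but 1 were above all 3 vehicle tumours, which is 15 of 16, so the groups overlap by 1 tumour. The log2 difference was 0.84 (SE 0.21, adjusted p = 0.0254), a 1.79-fold difference on that scale.

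The other Gabra4 probe set, 1433707_at, had values of 62.9, 85.95 and 123.1 in 40 mg/kg tumours and 59.5, 66.45 and 111 in 160 mg/kg tumours, against 45.2, 56.1 and 79.4 in vehicle tumours. It exceeded every vehicle value in 9 of 16, with a log2 difference of 0.44 (SE 0.20, adjusted p = 0.210), so it had the same sign and did not pass. The call of 1429330_at was lost without vehicle tumour 1 (log2 difference 0.64, adjusted p = 0.181) and without vehicle tumour 2 (0.86, adjusted p = 0.0844). Over the 19 fits that each leave out 1 tumour, its adjusted p lay between 0.0145 and 0.181, and it was called in 17. It was also lost without 40 mg/kg tumour 2 and 160 mg/kg tumours 7 and 8, at a log2 difference of 0.81 and an adjusted p of 0.0576.

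Gabra6 encodes alpha6, a subunit found in the brain almost only in cerebellar granule neurons. Probe set 1417121_at had values of 5.7, 13.2 and 1169.1 in 40 mg/kg tumours and 1.3, 7.15 and 901 in 160 mg/kg tumours, against 1.7, 10.8 and 25 in vehicle tumours. Most treated tumours were as dim as vehicle, and only 5 of 16 were above all 3. The log2 difference was 1.17 with an SE of 1.39 (adjusted p = 0.650). Gabra3, which encodes alpha3, had a difference of 0.77 (adjusted p = 0.488) and exceeded every vehicle value in 9 of 16.

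Among the beta subunits, which are needed for assembly of the channel, 0 of 5 kept probe sets passed, all of Gabrb2. Probe set 1429685_at had values of 12.5, 29.7 and 241.4 in 40 mg/kg tumours and 10.2, 34.2 and 257.2 in 160 mg/kg tumours, against 6, 8.5 and 12.8 in vehicle tumours. In 14 of 16 treated tumours it was brighter than in any vehicle tumour, with a log2 difference of 1.84 (SE 0.74, adjusted p = 0.153). The other probe sets gave 1.46, 1.07, 0.37 and -0.10, so the signs differ here too.

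The remaining GABA-A genes and the glycine receptor gave 0 calls. Gabrg1, which encodes gamma1, had a log2 difference of 0.96 (adjusted p = 0.393), and Gabrd, which encodes the delta subunit that pairs with alpha6 and alpha4 outside synapses, had 0.34 (adjusted p = 0.836). Gabrp encodes the pi subunit, known mainly from epithelia. Its probe set 1451424_at had values of 1.8, 8.35 and 22.9 in 40 mg/kg tumours and 3.2, 13.95 and 26.1 in 160 mg/kg tumours, against 23.3, 20.2 and 43.9 in vehicle tumours, with a log2 difference of -1.24 (adjusted p = 0.172) and 12 of 16 treated tumours below all vehicle tumours. The other Gabrp probe set, 1424647_at, gave -0.41 (adjusted p = 0.657), with 2 of 16 below, and its sign turned without vehicle tumour 3 (0.063).

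The summed signal of 5 skin epithelium genes (3 of them kept) was 2280 to 5362 in 40 mg/kg tumours and 234 to 3384 in 160 mg/kg tumours, against 5204 to 5880 in vehicle tumours. The part of this in the Gabrp values was not tested. Glrb encodes the beta subunit that anchors glycine receptors to gephyrin. Its signal (1422504_at) was 193.6, 278.5 and 539.6 in 40 mg/kg tumours and 178.5, 350.95 and 585.7 in 160 mg/kg tumours, against 257.9, 271.9 and 269.8 in vehicle tumours. The log2 differences of its 2 probe sets were 0.27 and 0.10, with adjusted p-values of 0.566 and 0.869, while no alpha subunit of the receptor was kept.

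The doses were then set against vehicle one at a time. At 40 mg/kg, 1 member rose and 0 fell, against 2.14% of all probe sets called (1.52% higher and 0.629% lower), and it was again Gabra4 (log2 difference 0.90, adjusted p = 0.0369). At 160 mg/kg, 0 members passed, against 4.05% of all probe sets (2.27% higher and 1.77% lower), and Gabra4 had a difference of 0.78 with an adjusted p of 0.0502. At an unadjusted p under 0.05, 40 mg/kg gave 5 higher and 4 lower members, against 19.3% of all probe sets (9.1% higher and 10.2% lower). On the same rule 160 mg/kg gave 4 higher and 3 lower members, against 20.4% (9.11% higher and 11.3% lower). Both Gria3 probe sets were among the lower ones at 160 mg/kg, with log2 differences of -1.54 and -1.08. Gabrp (-1.48), Grin3b (-1.01), Grin2d (-0.95) and 1 Grin2b probe set (-0.93) were the lower ones at 40 mg/kg, where another Grin2b probe set was among the higher ones (0.92). The comparisons share the 3 vehicle tumours.

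The direct comparison of 160 mg/kg with 40 mg/kg called 0 members and 0% of all probe sets. At an unadjusted p under 0.05 it held 2 members, against 6.81% of all probe sets (2.77% higher and 4.04% lower). Both were probe sets of Gria2, with log2 differences of 0.52 and 0.54, 160 mg/kg minus 40 mg/kg. The members' log2 differences between doses ran from -0.75 to 0.65. This is a test of each probe set alone and does not show that the doses act alike.

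The largest differences among these genes were between tumours of a group. For 10 of the 40 kept probe sets, 40 mg/kg tumour 2 and 160 mg/kg tumours 7 and 8 were the 3 highest of all 19 arrays, against 1.65% of all probe sets (514 of 31143). The 10 probe sets came from 6 genes: both kept probe sets of Gabra6 and of Grik2, 3 of 5 of Gabrb2, 1 of 3 of Gria4, 1 of 2 of Glrb and the 1 of Gabrd. One Gabra6 probe set (1451706_a_at) and that of Gabrd were above the filter level on these 3 arrays alone, so they were kept only through the tumours where they are high. Without Gabra6 it was 8 of 38 probe sets. The 3 tumours were picked after the values had been seen, so the count is a description with no test, and probe sets of a gene are not independent.

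Gabra6 (1417121_at) was at 1169.1 in 40 mg/kg tumour 2, and among the 160 mg/kg tumours at 290.2 in tumour 7 and 901 in tumour 8, against 1.3 to 47.1 in the other 13 treated tumours and 1.7 to 25 in vehicle tumours. Its other probe set was at 302.7, 80.1 and 253.1 in the same tumours, against 0.8 to 9.8 and 1.6 to 13. The 2 probe sets thus single out the same 3 tumours with no overlap.

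Gabrb2 (1429685_at) was at 241.4, 132.8 and 257.2 in 40 mg/kg tumour 2 and 160 mg/kg tumours 7 and 8, against 10.2 to 74.9 in the other treated tumours and 6 to 12.8 in vehicle tumours. Gabrd was at 78.7, 27.6 and 109.3 in these 3 tumours, against 1.3 to 12.8 in the other treated tumours and 2.7 to 14.2 in vehicle tumours. In these probe sets, the alpha6, beta2 and delta subunits were therefore all highest in the same tumours. These subunits are known to assemble into a receptor of mature granule neurons. Grin2c, whose GluN2C subunit is also known to be gained as these neurons mature, did not share the pattern. It was at 72.4, 35.4 and 30.9 in the 3 tumours, while the other treated tumours reached 139.2 and vehicle tumours 56.4. Gabrb2 1429685_at also exceeded every vehicle value in 14 of 16 treated tumours, while the other 4 Gabrb2 probe sets did so in 4 to 9 of 16.

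The glutamate receptor genes of the pattern were less set apart. Grik2 (1457683_at) was at 195.8, 177.8 and 213.8 in the 3 tumours, against 27.4 to 135.5 in the other treated tumours and 51.7 to 70.8 in vehicle tumours. Gria4 (1440891_at) was at 143, 134.3 and 191.7, against 10.1 to 122.4 and 42.4 to 64.7. Glrb (1422504_at) was at 539.6, 438.1 and 585.7, against 178.5 to 385 and 257.9 to 271.9, so in each of these the 3 tumours lay close above the next one. The other Gria4 and Glrb probe sets and 2 of Gabrb2 did not have these 3 tumours on top, though 40 mg/kg tumour 2 was 1 of the 2 highest in each.

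Leaving these 3 tumours out changed the fits of the genes that they carry. The Gabra6 log2 difference became 0.05 (adjusted p = 0.976), and that of Gabrb2 (1429685_at) became 1.30 (adjusted p = 0.123). The tumours left out were those that held the highest values, so the fall of the estimates follows from the choice and carries no test.

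**Figure D4:**
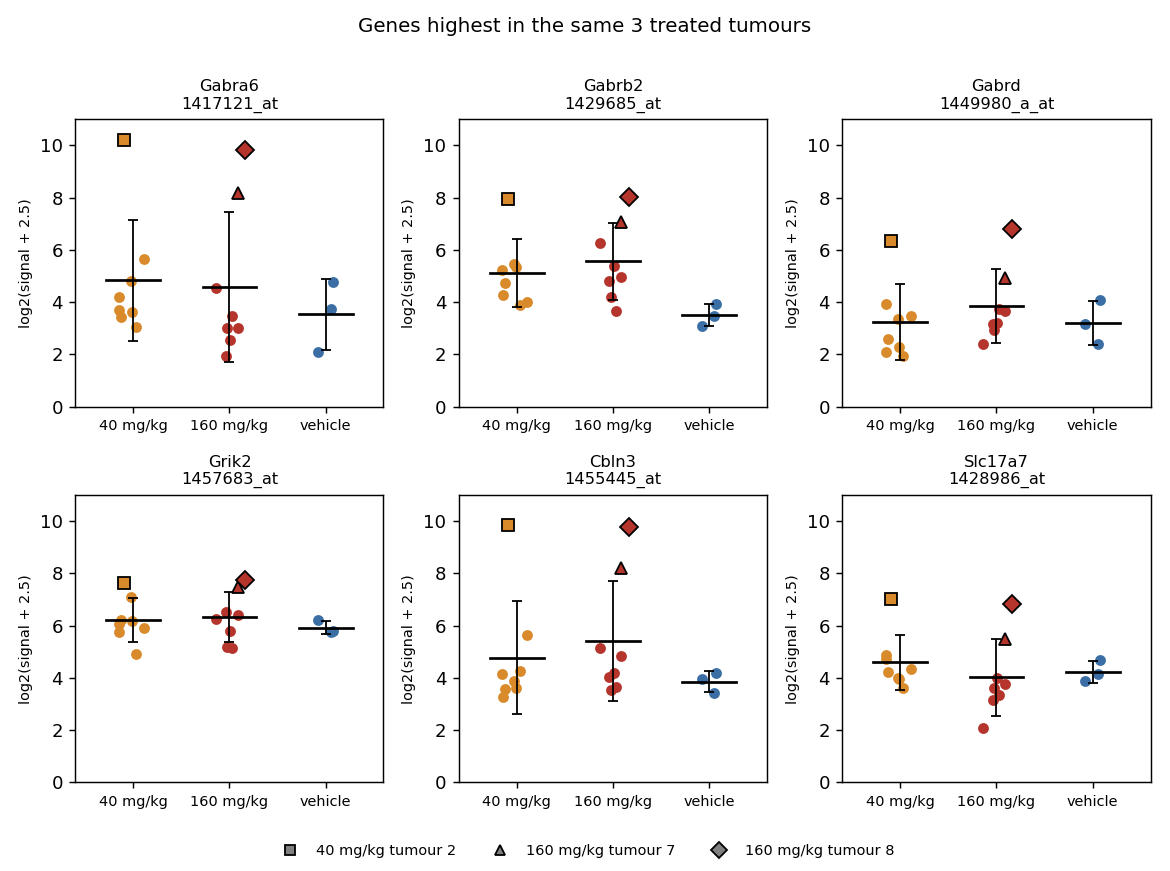
Log2(signal + 2.5) of 4 members and of Cbln3 and Slc17a7 in 40 mg/kg, 160 mg/kg and vehicle tumours (points, single tumours; horizontal bar and whisker, mean and SD), with 40 mg/kg tumour 2, 160 mg/kg tumour 7 and 160 mg/kg tumour 8 drawn as a square, a triangle and a diamond. The 3 marked tumours are the highest of the 19 in each panel, and Gabra6 reaches 1169.1 in the first of them.

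Genes outside the families showed the same 3 tumours on top. Cbln3, a secreted partner of cerebellin 1 made by granule neurons, was at 916.8, 290.9 and 871.4 in 40 mg/kg tumour 2 and 160 mg/kg tumours 7 and 8, against 7.2 to 47.6 in the other treated tumours and 8.1 to 15.9 in vehicle tumours. Slc17a7, which encodes the vesicular glutamate transporter VGLUT1 of mature granule neurons, was at 127.1, 42.5 and 109.6, against 1.7 to 26.5 and 12.1 to 22.9. Slc12a5, which encodes the chloride exporter KCC2 that makes GABA inhibitory, was at 263.3, 90.5 and 306.7, against 10.7 to 35.9 and 19.2 to 38.8.

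These genes belong to lists of receptor partners (auxiliary subunits, scaffolds, ligands, transporters and enzymes). Of these lists, 14 of 106 kept probe sets, from 10 of 50 genes, were highest in the same 3 tumours. That is 13.2%, against 1.65% of all probe sets. The tumours had been picked after the values were seen, so this count too is a description with no test. Snap25, a release protein of neurons in general, was also highest there, at 2338.8, 1523.6 and 2991.8, against 173 to 949.1 in the other treated tumours and 224.8 to 253.6 in vehicle tumours. The Purkinje cell marker Calb1 was highest there too, at 168.4, 25.7 and 124.5, against 0.8 to 24.9 in the other treated tumours and 6.6 to 22.2 in vehicle tumours. These are single markers. The pattern was held by 4 of 21 kept probe sets of neurons in general and by 1 of 4 kept Purkinje cell probe sets. Of the granule neuron lineage list, 1 of 20 kept probe sets held it, for Zic1. The summed signal of that list did not set the 3 tumours apart. Their sums were 26030, 30628 and 26993, while the other treated tumours ranged from 16417 to 30582. The part of neuronal content in the receptor values was not tested.

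Over the partner lists as a whole, 6 of 106 kept probe sets rose in treated tumours and 0 fell, and 100 did not pass. That is 5.66%, against 4.47% of all probe sets. Of those that rose, Cacng4 1450975_at and Nrxn3 1456137_at were above the filter level on 0 vehicle arrays, so they were kept through treated tumours alone. The filter favours probe sets that are higher in treated tumours here too, and the split of the calls by direction describes kept probe sets only. Slc17a6 encodes VGLUT2, the vesicular glutamate transporter of young granule neurons. Its probe set 1428379_at had values of 97.8, 424.15 and 671.2 in 40 mg/kg tumours and 130.3, 541.45 and 945.4 in 160 mg/kg tumours, against 49.2, 54.1 and 88.1 in vehicle tumours. All 16 treated tumours were above all 3 vehicle tumours, as for 1.83% of all probe sets. The log2 difference was 2.65 (SE 0.48, adjusted p = 0.00442), or 6.27-fold. Probe set 1418610_at also rose, by a log2 difference of 2.31 (adjusted p = 0.00668).

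Cacng4 encodes TARP gamma-4, an auxiliary subunit that carries AMPA receptors to the membrane and slows their closing. It had values of 22.6, 45.4 and 183.7 in 40 mg/kg tumours and 9.6, 49.9 and 72.4 in 160 mg/kg tumours, against 2, 3.2 and 6.5 in vehicle tumours, and all 16 treated tumours were above all 3. The log2 difference was 2.98 (SE 0.49, adjusted p = 0.00207), a size that depends on the pseudocount because vehicle values were near it. A second probe set of the gene gave 0.30 (adjusted p = 0.595), so the probe sets differ in call. Cacng2, which encodes stargazin, the TARP of granule neurons, gave 2.04 (adjusted p = 0.0625), 0.92 (adjusted p = 0.121) and -0.17 (adjusted p = 0.888) over 3 probe sets. With both doses together none passed, and the signs differ. At 160 mg/kg alone, 1420596_at passed (2.39, adjusted p = 0.0463) and the other probe sets did not (adjusted p = 0.0867 and 0.933). At 40 mg/kg alone, 1420596_at did not pass (1.68, adjusted p = 0.171).

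The other partners that rose were Nrxn3 (log2 difference 3.27, SE 0.80, adjusted p = 0.0254), a presynaptic adhesion protein with vehicle values of 1.7 to 5.7, and Shank3 (1.02, SE 0.24, adjusted p = 0.0202), a scaffold of excitatory synapses. The called Nrxn3 probe set was 1456137_at, and the other 3 kept probe sets of Nrxn3 did not pass, with log2 differences of 2.50 (adjusted p = 0.0751), 2.30 (adjusted p = 0.147) and -0.84 (adjusted p = 0.267), so they differ in sign. Gabarapl1, of the GABA-A receptor-associated protein family, rose by 0.74 in 1416419_s_at (SE 0.21, adjusted p = 0.0481), and its other probe set gave 0.57 (adjusted p = 0.0671). Set against vehicle alone, that other probe set passed at 160 mg/kg (0.68, adjusted p = 0.0470) and not at 40 mg/kg (0.46, adjusted p = 0.187). The partner count was 3 without vehicle tumour 1 and 2 without vehicle tumour 3, when Cacng4 and Slc17a6 were called. The called partners were thus Slc17a6, Cacng4, Shank3, Nrxn3 and Gabarapl1, while 0 of the glutamate receptor subunits passed. Whether the partners differ from the receptor genes was not tested.

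**Figure D5:**
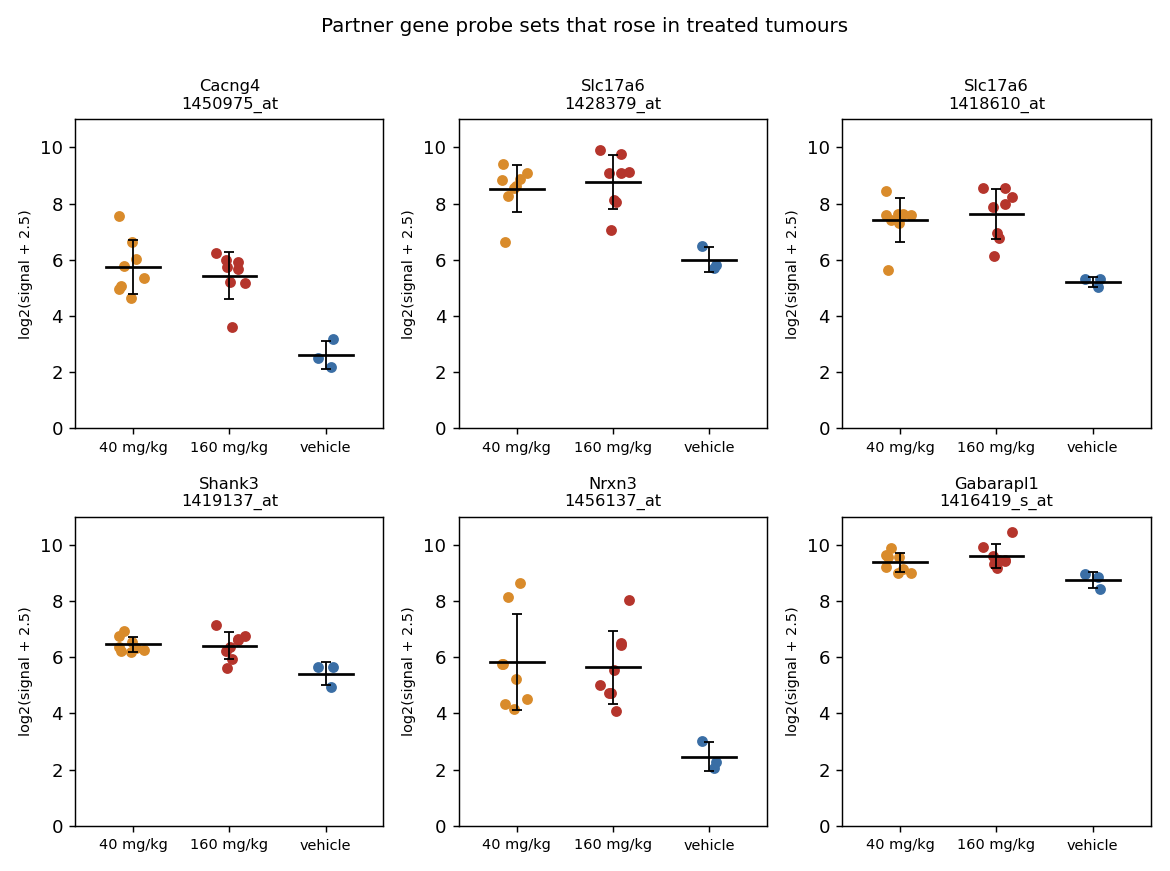
Log2(signal + 2.5) of the 6 partner probe sets that rose, in 40 mg/kg, 160 mg/kg and vehicle tumours (points, single tumours; horizontal bar and whisker, mean and SD). For Cacng4, Nrxn3, Gabarapl1 and both Slc17a6 probe sets all 16 treated tumours lie above all 3 vehicle tumours. This held for 1.83% of all probe sets. For Shank3, 15 of 16 treated tumours do.

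The tissue was checked against marker genes. Of the granule neuron lineage genes, 9 of 9 measured were kept, Zic1 and Neurod1 among them, and 5 rose in treated tumours (Cntn2, Neurod1, Nhlh2, Reln and Zic1), with summed signals of 19256 to 30582 in 40 mg/kg and 16417 to 30628 in 160 mg/kg tumours, against 12439 to 13791 in vehicle tumours. Atoh1 and Barhl1 of that list did not pass and had negative estimates, at -0.87 for Atoh1 (adjusted p = 0.507) and -0.75 and -0.59 for Barhl1 (adjusted p = 0.517 and 0.565), with 12 or 13 of 16 treated tumours below all vehicle tumours. Of 10 genes of neurons in general 9 were kept and 5 rose, with sums of 6575 to 14054 and 7176 to 14296, against 4642 to 5560. Of 4 measured genes of inhibitory neurons 1 was kept, Gad2. The Purkinje cell genes summed to 107.6 to 417.7 and 93.3 to 412.5, against 220.1 to 360.6. Of 26 kept probe sets of astrocytes and radial glia, 2 rose (Aldoc and Fabp7) and 2 fell (both Gja1), with sums of 4736 to 10975 and 2546 to 7939, against 8054 to 9494. Sums of oligodendrocyte and Schwann cell genes were 2784 to 22039 and 2379 to 18201, against 2440 to 2549, where Cldn11, Cspg4 and Pdgfra rose, and those of skeletal muscle genes 159.8 to 19008 and 138 to 7080, against 744 to 3185. The part of these markers in the receptor values was not tested, and no scan date or detection call was used here.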

How the data were processed

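RNA from 19 flash-frozen tumours was labelled and hybridised to Affymetrix mouse arrays, per the labels' protocols, and the deposited values are MAS5 signal intensities, per the submitters' processing notes. The series names the 430A 2.0 array, while the probe sets match the full 430 2.0 table used for gene symbols. MAS5 scales each array alone and gives noisy low signals. Array medians were 32.7 to 49.7, and arrays correlated at 0.878 to 0.968.

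After removal of 64 control probe sets, 45037 remained, and 31143 were kept (above the 40th percentile of the array on at least 3 arrays). Values were log2(signal + 2.5), where 2.5 is near the 10th percentile. limma 3.58.1 in R 4.3.3 (lmFit, eBayes with a variance trend, 3 group means, 16 residual degrees of freedom) was tested on simulated data and gave two-sided p-values adjusted by Benjamini-Hochberg over all kept probe sets. Adding a pseudocount shrinks the differences of dim genes. The number of arrays limits the precision. The labels do not say whether tumours of the same number in different groups are paired, and the main fit used no pairing. Of 14 same-numbered pairs, 0 had a deviation correlation over 0.1 (range -0.13 to 0.09). Such correlations over all kept probe sets need not show a shared donor or processing, so they cannot exclude pairing.

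Values over the arrays are given for called members, the brightest and smallest-p probe set of each subunit list and some core subunits, and for called partners and those of smallest p. Gabrd, other probe sets and the genes of the 3-tumour pattern were named after their values had been seen. The receptor genes, lists and tests were chosen with earlier results of these data known. Alternatives covered normalization, pseudocount, filter, array weights, replicate block, probe set choice and left-out arrays. Promoters came from RefSeq tables. Figures used matplotlib 3.10.9.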

Additional observations from a re-analysis of the deposited data

Results flagged for a closer look

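Of 80 checks within the 2 treated groups of 8, 12 values of members lay further from their group than Dixon's 95% limit for 8 values allows. Chance flags about 1 in 20 groups of independent values, but these checks are not independent, since probe sets of a gene recur. Gabra6 1451706_a_at and Gabrd were also kept only through 3 tumours that include 40 mg/kg tumour 2. The count is therefore a description with no test against chance. Of the 12 flagged values, 5 were high values of 40 mg/kg tumour 2: Gabra6 at 1169.1 (1417121_at) and 302.7 (1451706_a_at), Gabrb2 at 241.4 (1429685_at) and 151 (1428204_at), and Gabrd at 78.7. Another 2 were low values of 160 mg/kg tumour 2, for Gria3 at 8.5 (1434728_at) and 7.4 (1420563_at). In 160 mg/kg tumour 6, Grin2b (1457003_at) was low at 3.9, Grin3a (1458378_at) at 1.4 and Gabrg1 at 0.9. Gria3 (1420563_at) was low at 21.1 in 40 mg/kg tumour 5, and Gria4 (1440891_at) at 10.1 in 160 mg/kg tumour 1. No probe set had all tumours of the doses on opposite sides of vehicle.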

How the results depend on the processing

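Limits: dim receptor signals, 3 vehicle tumours and no separate measure of tumour content bound these comparisons. The cause of each change below was not tested. Some alternatives also held fewer tumours or probe sets. Against vehicle with both doses, 1 receptor probe set was called; the count was 13 with array weights, when 8907 of all probe sets (28.6%) were called, and 0 with the 60th-percentile filter, without the 2 least-like arrays (274 of all probe sets, against 1392), with a 2-fold minimum, and without the 3 tumours that share the high GABA-A genes (chosen after seeing the data; 811 of all probe sets). With the replicate block it was 0 (819 of all), although the labels do not say whether the numbers pair tumours. Leaving out 1 tumour gave 0 to 2: 0 without vehicle tumour 1 or 2, and 2 without 160 mg/kg tumour 6, when Grin2b was added. At 40 mg/kg the count of 1 became 13 with array weights and 0 with no filter, the 60th-percentile filter, without the least-like arrays, with the replicate block, with a 2-fold minimum and without the 3 tumours, and 0 to 1 leaving out 1 tumour. At 160 mg/kg the count of 0 became 1 with quantile normalization, with array medians subtracted and with a pseudocount of 1, and 8 with array weights, and was 0 to 1 leaving out 1 tumour. Between doses it was 0 under each alternative. The 6 partner probe sets became 36 of 106 with array weights and 2 without the least-like arrays, and 2 to 7 leaving out 1 tumour. The 36 stand against the same 28.6% of all probe sets with both doses. With array weights, the shares of all probe sets called at each single dose are not given here. The counts of 13 at 40 mg/kg and 8 at 160 mg/kg are therefore no result about the receptor genes. With array medians subtracted, 1024 of all probe sets were called. Directions turned for estimates near 0 or of unlike probe sets. Gria2 (0.01) was -0.021 without the least-like arrays, -0.14 without the 3 tumours and -0.041 to 0.090 leaving out 1 tumour. Gabrp 1424647_at (-0.41) was 0.035 without the least-like arrays and -0.95 to 0.063 leaving out 1 tumour. Grin2c (-0.02) was 0.12 with quantile normalization, 0.045 with medians subtracted, 0.029 with a pseudocount of 16 and -0.56 to 0.36 leaving out 1 tumour. Grin2b (0.75) was -0.10 as the mean of its kept probe sets.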
